A study of Mus musculus with 12 samples.

Results

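Onecut2, Ucma, Sfmbt2 and Cidea are 4 of the 15759 entries of a table of normalized read counts from mouse cortex and cerebellum, and all 4 were among the 15369 genes tested, which had a mean of at least 10 normalized counts over the 12 libraries. The genes were chosen by their cortical values, which were higher in SCA1 KI than in WT libraries with little overlap, and every difference that uses a cortical library is given below as a description, without a test. The SCA1 KI and WT cerebellar libraries played no part in the choice. The comparison between them was tested, with a spread for each gene taken from all 12 libraries, cortical ones included.

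SCA1 KI mice (Atxn1 154Q/2Q) carry a glutamine-coding repeat of 154 units in one allele of their own Atxn1 gene and 2 units in the other, so the expanded ataxin-1, which models spinocerebellar ataxia type 1, is made wherever the Atxn1 promoter is active. Their WT littermates served as controls, and all mice were C57BL/6J, 12 weeks old and, per the labels, male. Poly-adenylated RNA of the whole cortex and the whole cerebellum was sequenced, with 3 biological replicates for each genotype in each region (4 groups), to ask which transcriptional changes the regions share and which belong to one of them. The cerebellar libraries come from an earlier data set of the same laboratory, so region and data set cannot be told apart. In whole tissue, fewer cells of a type and less RNA per cell cannot be told apart either.

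The 4 genes have little in common in their known roles. Onecut2 encodes a transcription factor with a cut domain and a homeodomain, known from the development of liver, pancreas, retina and neurons. Ucma encodes a small secreted protein of cartilage, whose glutamate residues are carboxylated with vitamin K (a Gla protein). Sfmbt2 encodes a chromatin protein whose MBT domains bind methylated histone tails and which works with Polycomb repressors, and Cidea encodes a protein of the lipid droplet surface, best known from brown fat, where it takes part in the fusion of droplets.

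Promoter sequences were looked up because the 4 genes were all higher in the 3 SCA1 KI cortex libraries than in WT cortex. This is the difference that chose them. RefSeq entries (GRCm38.p6) were at hand for Ucma and Sfmbt2, the latter with 2 start sites. Each window runs from 250 bases before the start site to 50 bases after it, on the plus strand of chromosome 2. The windows are chr2:4975872-4976171 for Ucma, chr2:10370201-10370500 for the first start of Sfmbt2 and chr2:10372186-10372485 for its second start. Capitals mark matches to CCAAT, a common promoter element, or to GCCATNTT, a motif of the factor Yy1, on either strand.
Ucma: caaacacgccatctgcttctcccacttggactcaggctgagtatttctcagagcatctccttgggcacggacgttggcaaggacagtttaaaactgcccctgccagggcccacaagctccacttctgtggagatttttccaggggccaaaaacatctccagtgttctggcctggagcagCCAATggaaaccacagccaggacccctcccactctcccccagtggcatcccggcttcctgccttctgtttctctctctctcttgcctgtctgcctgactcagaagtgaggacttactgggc
Sfmbt2 start 1: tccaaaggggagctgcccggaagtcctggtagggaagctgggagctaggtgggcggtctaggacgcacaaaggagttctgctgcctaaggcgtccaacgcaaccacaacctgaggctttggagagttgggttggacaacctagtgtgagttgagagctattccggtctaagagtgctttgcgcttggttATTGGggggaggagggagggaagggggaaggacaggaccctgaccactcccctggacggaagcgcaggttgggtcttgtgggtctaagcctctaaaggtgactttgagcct
Sfmbt2 start 2: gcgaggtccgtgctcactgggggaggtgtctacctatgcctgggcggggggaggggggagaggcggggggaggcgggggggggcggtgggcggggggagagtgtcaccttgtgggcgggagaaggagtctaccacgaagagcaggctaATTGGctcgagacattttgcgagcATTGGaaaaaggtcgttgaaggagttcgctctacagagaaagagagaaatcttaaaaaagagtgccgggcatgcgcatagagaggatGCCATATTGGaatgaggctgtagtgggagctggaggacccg
The motifs were chosen after these sequences had been read. The letters CCAAT occur once in the Ucma window, 71 bases before the start, once in the first Sfmbt2 window, 61 bases before the start, and at 3 places in the second. The last of these overlaps the one match to GCCATNTT, which begins at base 10 after the second start. Of 32851 mouse promoter windows of this length, 37.4% hold CCAAT and 6.05% hold GCCATNTT. The letters ATTGAT (in 7.54% of all windows) and ATCGAT (0.925%), which ONECUT factors are known to bind, and TGAATGAA (1.3%) and TGAATGGA (1.21%), which the ataxin-1 partner capicua is known to bind, had no match in these 3 windows. The windows hold 4, 9 and 16 CpG dinucleotides in the order printed, against a median of 7 over all windows. A match is a description of the letters and not a bound site.

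In GENCODE vM21 on GRCm38 all 4 genes are protein-coding and lie on the plus strand. Onecut2 spans 64340020 to 64400987 and Cidea 67343604 to 67367785 on chromosome 18. Ucma spans 4976122 to 4985748 and Sfmbt2 10370510 to 10595253 on chromosome 2. No exon of another annotated gene overlaps their exons. The span of Sfmbt2 holds 119 annotated miRNA genes, all on its strand and none sharing a base with its exons.

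The libraries held 29520855 to 51311309 reads on genes. Atxn1, which carries the knock-in repeat in SCA1 KI mice, had overlapping normalized counts in both genotypes of the cortex (6521 to 8147 in WT, 4604 to 7249 in SCA1 KI) and of the cerebellum (3628 to 3737 in WT, 3717 to 4138 in SCA1 KI). These counts do not show the repeat and so do not check the genotype labels. The regional labels fit the marker Cbln3 of granule cells, which lay at or above 45417 in the cerebellar and at or below 108 in the cortical libraries. WT cerebellum library 2 stood apart, with a summed count of 7 granule cell markers of 134921 against 184524 to 196228 in the other cerebellar libraries. Some marker lists differed between the genotypes, and their values are given after the results of the members.

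Onecut2 was the member with the largest normalized count in SCA1 KI cortex. Its normalized count was 190, 148 and 121 in the WT cortex libraries B, C and D, and 768, 841 and 649 in the SCA1 KI cortex libraries A, E and F. In the cerebellum it was 219, 186 and 197 in the WT libraries 2, 4 and 6, and 291, 244 and 246 in the SCA1 KI libraries 1, 3 and 5. The SCA1 KI cortex libraries thus stood well above the other 9, which reached 291 at most. The means were 153 ± 35.0 (SD, n = 3) in WT cortex, 752 ± 97.0 in SCA1 KI cortex, 201 ± 17.0 in WT cerebellum and 260.1 ± 26.5 in SCA1 KI cerebellum. In descending order the groups were SCA1 KI cortex, SCA1 KI cerebellum, WT cerebellum and WT cortex, and only the last pair of neighbours overlapped in their libraries.

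Sfmbt2 showed the same kind of pattern. Its normalized count was 128, 135 and 115 in WT cortex and 347, 385 and 416 in SCA1 KI cortex. In the cerebellum it was 201, 162 and 160 in WT and 166, 205 and 220 in SCA1 KI. The SCA1 KI cortex libraries again stood above all others, while the cerebellar genotypes overlapped. The means were 126 ± 10.2 (SD, n = 3), 383 ± 34.7, 174 ± 23.0 and 197 ± 27.7 in the order of the libraries given. The order of the groups was SCA1 KI cortex, SCA1 KI cerebellum, WT cerebellum and WT cortex, and here the overlap was between the cerebellar groups.

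Ucma was the gene with the lowest cortical counts. Its normalized count was 8.32, 5.54 and 6.83 in WT cortex, from 7, 5 and 6 reads, and 37.4, 37.4 and 40.5 in SCA1 KI cortex. In the cerebellum it was 115, 154 and 161 in WT and 169, 174 and 217 in SCA1 KI. Every cerebellar library of either genotype was above every cortical library, so that SCA1 KI cortex lay between WT cortex and the cerebellum. The means were 6.90 ± 1.39 (SD, n = 3), 38.5 ± 1.79, 143 ± 24.6 and 187 ± 26.1 in the same order. No neighbouring groups overlapped.

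Cidea had the same order of groups as Ucma at a higher level. Its normalized count was 36.8, 33.2 and 43.3 in WT cortex and 143, 115 and 102 in SCA1 KI cortex. In the cerebellum it was 196, 238 and 234 in WT and 327, 312 and 321 in SCA1 KI. The groups rank SCA1 KI cerebellum, WT cerebellum, SCA1 KI cortex and WT cortex, without overlap between neighbours. The means were 37.8 ± 5.09 (SD, n = 3), 120.03 ± 20.9, 223 ± 23.1 and 320.01 ± 7.68.

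**Figure D1:**
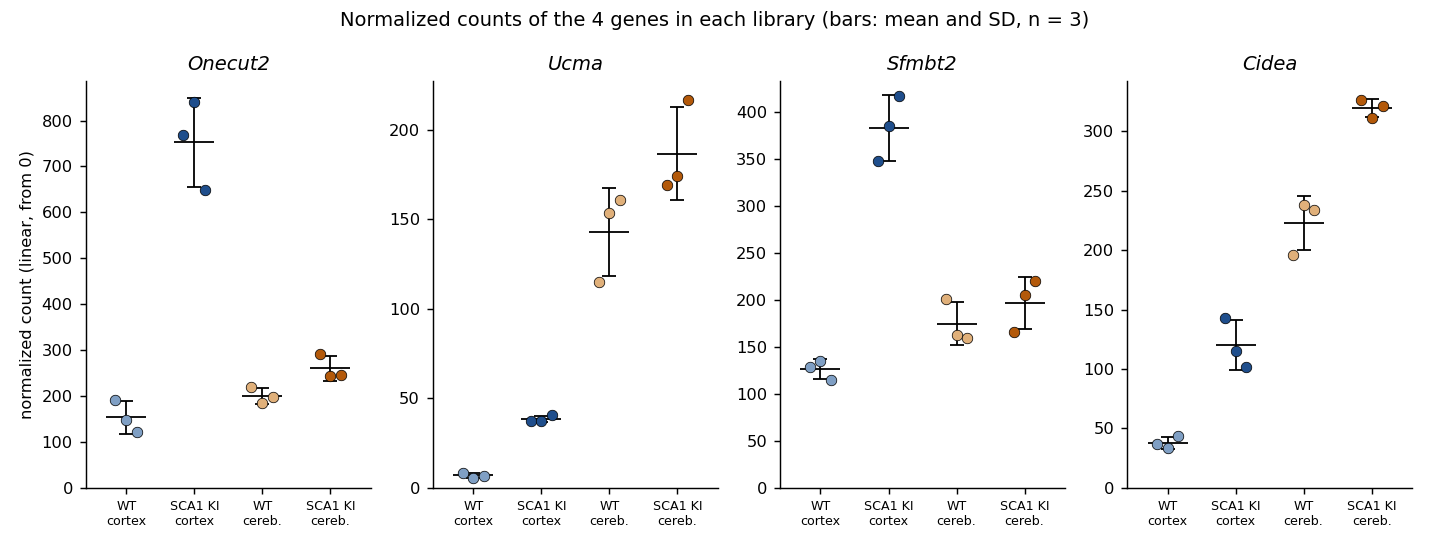
Normalized counts (vertical axes, linear and starting at 0) of each gene in the 3 libraries of each group, one panel per gene, with points for libraries and bars for the mean and SD. In the Onecut2 and Sfmbt2 panels the SCA1 KI cortex is the highest group, with means of 752 and 383, and in the Ucma and Cidea panels it lies between WT cortex and both cerebellar groups.

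Divided by the length of the merged exons, which is 16.234 kb for Onecut2, 0.884 kb for Ucma, 9.128 kb for Sfmbt2 and 1.115 kb for Cidea, the levels of the genes can be set beside each other. In WT cortex the mean level was 33.9 normalized counts per kb for Cidea, 13.8 for Sfmbt2, 9.43 for Onecut2 and 7.80 for Ucma. In SCA1 KI cortex it was 108 for Cidea, 46.4 for Onecut2, 43.5 for Ucma and 41.9 for Sfmbt2. Cidea was thus the most abundant of them per length in both cortical groups. In WT cerebellum the level per kb was 199.9 for Cidea and 162 for Ucma but 19.1 for Sfmbt2 and 12.4 for Onecut2.

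The mean of SCA1 KI cortex can be set against that of WT cerebellum. It was 375% of the WT cerebellar mean for Onecut2 and 219.5% for Sfmbt2, against 26.9% for Ucma and 53.9% for Cidea. For the latter pair, whose WT level differed widely between the regions, the difference between the cortical genotypes amounted to 23.2% (Ucma) and 44.4% (Cidea) of the difference between WT cerebellum and WT cortex.

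The cortical difference between the genotypes chose the genes, and its values are given with no test. On the scale of log2(normalized count + 1), the log2 fold change (LFC) of SCA1 KI against WT cortex was 2.31 for Onecut2 (standard error 0.16), 2.34 for Ucma (0.19), 1.59 for Sfmbt2 (0.14) and 1.64 for Cidea (0.15). With a pseudocount of 5 in place of 1 that of Ucma was 1.88, since its counts are low. All 4 were among the genes called higher, as were 4.82% of all tested genes. Such a call took an absolute LFC above 0.25 and an adjusted p (Benjamini-Hochberg) below 0.05. Their cortical libraries did not overlap, which held for 13.0% of tested genes in this direction. Among the 722 genes called higher without overlap they stood at ranks 1, 2, 4 and 5 by p, and Pou4f1 at rank 3 is not one of them. The calls, the lack of overlap and these ranks use the values that chose the genes. They describe the choice and lend it no support. Just inside lay Cidea, at 33.2 to 43.3 in WT and 102 to 143 in SCA1 KI cortex. Just outside lay Arxes1 (546 to 611 and 898 to 971), Ece2 (628 to 700.2 and 1097 to 1393) and Twist1 (20.2 to 43.3 and 234 to 644).

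The 3 SCA1 KI cortex libraries did not keep one order over the genes. Onecut2 was highest in library E, Ucma and Sfmbt2 in library F and Cidea in library A. With any one of the 12 libraries left out, the cortical LFC lay between 2.15 and 2.47 for Onecut2, 2.21 and 2.46 for Ucma, 1.53 and 1.66 for Sfmbt2, and 1.50 and 1.75 for Cidea.

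In the cerebellum, whose counts had no part in the choice of genes, the LFC was positive for all 4 genes. It passed the threshold of the limma fit for none of them, while Cidea passed that of edgeR and of DESeq2. The limma intervals and p-values use a spread shared with the cortical libraries and so are not wholly free of the choice. The LFC of Cidea was 0.53 (95% interval 0.20 to 0.85, limma adjusted p = 0.0647), with the 3 SCA1 KI libraries (312 to 327) above the 3 WT libraries (196 to 238). That of Onecut2 was 0.37 (0.031 to 0.71, limma adjusted p = 0.235), with 244 to 291 above 186 to 219. The Ucma LFC of 0.39 (−0.033 to 0.81, limma adjusted p = 0.337) came with 169 to 217 above 115 to 161. Sfmbt2, whose libraries overlapped, had an LFC of 0.17 (−0.13 to 0.47, limma adjusted p = 0.602).

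By limma 0 of the 4 genes were called in the cerebellum, where 0.917% of tested genes were called higher. At an unadjusted p under 0.05 there were 2, Onecut2 and Cidea. For Cidea, edgeR gave a call (adjusted p = 0.0419) and so did DESeq2 (adjusted p = 0.0103), each on the whole reads recovered from the table, and neither called the other 3 genes. The cerebellar libraries of 3 of the 4 genes did not overlap, with SCA1 KI above WT, as was true of 14.3% of all tested genes. In an exact permutation test on single genes, two-sided, p was 0.1 for Onecut2, Ucma and Cidea, the smallest value that 3 against 3 libraries allow, and 0.2 for Sfmbt2.

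WT cerebellum library 2, which stood apart in its granule cell markers, had the lowest Cidea and Ucma and the highest Onecut2 and Sfmbt2 counts of its group. Its thalamic (14227), habenular (371) and oligodendrocyte (255536) marker sums were the highest of its group. Libraries 4 and 6 had thalamic sums of 9096 and 10830, habenular sums of 144 and 253 and oligodendrocyte sums of 170288 and 189436. The part of these markers in the 4 genes was not tested. Without WT cerebellum library 2 the cerebellar LFC of Cidea was 0.44 (limma adjusted p = 0.237), that of Ucma 0.24, that of Onecut2 0.44 and that of Sfmbt2 0.28. For Ucma and Sfmbt2 this moved the value by more than 1.5 times. Without SCA1 KI library 5 the Sfmbt2 LFC was 0.088 and without SCA1 KI library 1 it was 0.29. Over the 12 fits that each left out 1 library the adjusted p of Cidea ranged from 0.0361, without SCA1 KI cortex library A, to 0.237, so that the side of the threshold depended on single libraries.

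**Figure D2:**
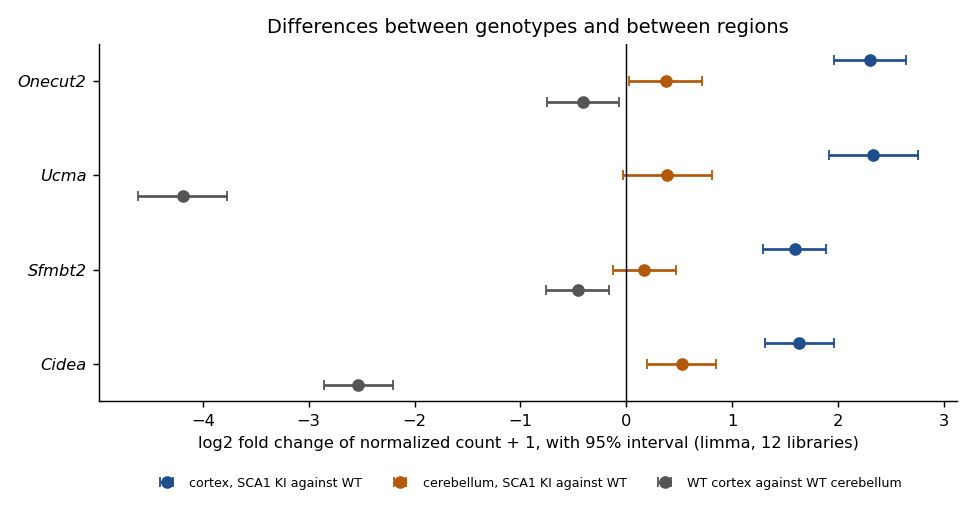
LFC of log2(normalized count + 1) with 95% intervals from the limma fit (horizontal axis) for SCA1 KI against WT cortex, SCA1 KI against WT cerebellum and WT cortex against WT cerebellum, by gene. The cortical values lie between 1.59 and 2.34 and chose the genes, the cerebellar ones lie between 0.17 and 0.53, and the regional difference is −4.19 for Ucma and −2.53 for Cidea but under 0.5 in size for the other pair.

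The cortical LFC minus the cerebellar one, a value which holds the contrast that chose the genes, was 1.93 for Onecut2 (standard error 0.22), 1.95 for Ucma (0.27, and 1.50 with a pseudocount of 5), 1.42 for Sfmbt2 (0.19) and 1.11 for Cidea (0.21). In WT mice, whose cortical libraries are shared with that contrast, the LFC of cortex against cerebellum was −0.41 for Onecut2, −4.19 for Ucma, −0.46 for Sfmbt2 and −2.53 for Cidea. For Ucma, Sfmbt2 and Cidea the WT cortex libraries lay under all WT cerebellar ones, and so did those of 34.8% of tested genes. For Onecut2 the regions overlapped, at 121 to 190 in WT cortex and 186 to 219 in WT cerebellum.

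Since Ucma and Cidea were high in cerebellum, the defining markers of cerebellar cells were examined in the cortical libraries. Gabra6, a GABA-A receptor subunit of granule cells, had 0 to 3.04 normalized counts in SCA1 KI cortex and 0 to 42.1 in WT cortex, against 20711 to 32163 in the cerebellum. Pcp2 of Purkinje cells had 0 to 1.01 in SCA1 KI and 0 to 28.5 in WT cortex, against 7439 to 10742 in the cerebellum. The summed count of all 7 granule cell markers was 3959 to 5104 in SCA1 KI and 4466 to 4908 in WT cortex, and 0 of the 7 passed the limma test between the cortical genotypes. At an unadjusted p under 0.05 there was 1 of the 7, in the lower direction, which DESeq2 called and edgeR did not. Gabra6 and Pcp2 were thus at or near 0 in SCA1 KI cortex. In WT cortex the median was 1.19 for both, and only the highest library of each gene reached more.

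Markers of the midbrain and hindbrain moved with the genotype in the cortex. Their summed count over 13 genes was 486 to 605 in WT cortex and 1779, 942 and 1952 in the SCA1 KI cortex libraries A, E and F. Of 11 tested genes limma called 3 higher (Tal1, En1 and En2) and 0 lower, and edgeR also called 3 higher. DESeq2 called 4 higher, and 4 were higher at an unadjusted p under 0.05. Over all tested genes limma called 4.82% higher and 10.8% lower in SCA1 KI cortex. En1 and En2 were also high in the cerebellar libraries, at 165 to 264 and 4610 to 7275. In the cortex En2 was at 14.4 to 29.7 in WT and 108 to 239 in SCA1 KI. Tal1 was at 45.3 to 248 in the cerebellum and 497 to 991 in SCA1 KI cortex. Of the genes of dopamine and serotonin neurons, Th, Slc6a4 and Tph2 ranged widely within SCA1 KI cortex and did not pass the limma test. In SCA1 KI cortex they ran from 34.4 to 561, 0.986 to 152 and 60.7 to 261. In WT cortex they ran from 29.6 to 151, 2.28 to 8.86 and 44.3 to 72.9. Over these 3 libraries Onecut2 ran against the order of the sums, being highest in E (841) and lowest in F (649). Ucma was highest in F (40.5), which had the highest sum, and at 37.4 in A and E. Sfmbt2 was also highest in F (416) but lowest in A (347), and Cidea was highest in A (143) and lowest in F (102). The part of this signal in the 4 genes was not tested. The summed count of cortical excitatory neuron markers was 84279 to 86155 in WT and 57549 to 68006 in SCA1 KI cortex, with 2 of 7 called lower. Lower calls were also made for 3 of 5 astrocyte markers (sums of 50263 to 55335 in WT and 33383 to 43584 in SCA1 KI cortex). Of the 6 genes listed as Purkinje cell markers (42184 to 45147 and 24610.0 to 28747) 3 were called lower, Itpr1, Calb1 and Car8. Most of that sum was Itpr1 (34427.5 to 36281 in WT and 17419 to 22203 in SCA1 KI cortex). Pcp2 and Ppp1r17 (9.96 to 18.2 and 4.93 to 30.6) were low in both cortical groups and not called by limma. The sum thus does not show Purkinje cells in the cortex. Further lower calls were made for 2 of 6 hippocampal markers (9492 to 10008 and 6491 to 8255) and for the 1 tested blood marker (238 to 298 and 121 to 193). Of the striatal markers 2 of 6 were called lower, with overlapping sums (8962 to 18621 and 5554 to 10379). Of the habenular markers 1 was called higher (Pou4f1, 2.21 to 6.83 in WT and 217 to 372 in SCA1 KI cortex) and 1 lower. Of the thalamic ones 1 was called higher (Shox2, at 0 in all WT and 16.2 to 51.4 in SCA1 KI cortex) and 1 lower. The sums of these last lists overlapped between the genotypes. The parts of these lists in the values of the 4 genes were not tested either.

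In the cerebellum, markers of other brain regions differed between the genotypes. Over all tested genes limma called 0.917% higher and 4.44% lower in SCA1 KI cerebellum. Of the thalamic markers 5 of 7 were called lower in SCA1 KI cerebellum, of the habenular ones 4 of 5 and of the midbrain and hindbrain ones 2 of 11. The thalamic sum was 9096 to 14227 in WT and 5181 to 5491 in SCA1 KI cerebellum, and the habenular sum was 144 to 371 and 20.2 to 40.7. Of the astrocyte markers 1 of 5 was called lower, with sums of 96669 to 99595 in WT and 86924 to 90285 in SCA1 KI. Of 5 oligodendrocyte markers 0 were called by limma or edgeR and 2 lower by DESeq2, 4 were lower at an unadjusted p under 0.05, and the sums, at 170288 to 255536 and 145915 to 146496, did not overlap. Those of 5 microglial markers, 1 of them called lower, were 2576 to 3565 and 2354 to 2480.4. Of the excitatory neuron markers limma called Tbr1 higher, at 23.2 to 32.0 in WT and 33.6 to 46.3 in SCA1 KI cerebellum, and edgeR called 0. The call was lost in 4 of the fits that each left out 1 library. The sums of this list, 13722 to 18883 and 20131 to 22079, were mostly Slc17a7 (11695 to 16696 and 18056 to 19972). The lowest sum was that of WT library 2. Of the hippocampal markers 1 of 6 was called lower, with overlapping sums. The parts of these lists in the cerebellar values of the 4 genes were not tested. The granule cell sum overlapped between the genotypes, at 134921 to 196228 in WT and 184524 to 194281 in SCA1 KI. The choroid plexus sum was 1322, 25600.2 and 75889 in the SCA1 KI libraries 1, 3 and 5. In these libraries Ucma was at 169, 174 and 217 and Sfmbt2 at 166, 205 and 220. In the WT libraries 2, 4 and 6 this sum was 22229, 72657 and 19850.2. There Ucma was at 115, 154 and 161 and Sfmbt2 at 201, 162 and 160. The part of the choroid plexus signal in these genes was not tested.

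The 4 genes formed pairs in their pattern over the 12 libraries. Pearson's r of log2(normalized count + 1) was 0.949 between Onecut2 and Sfmbt2 and 0.987 between Ucma and Cidea, while the 4 other pairings lay between 0.15 and 0.29. The libraries share region and genotype, so these values, over n = 12, describe the levels of the groups, and they carry no p. Over the 6 cortical libraries alone all 6 pairings lay between 0.94 and 0.98, where the choice of genes fixes the direction.

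The genes most like Onecut2 were Hfm1 (r = 0.978), Sfmbt2, Cd99l2 (0.946), Barx1 (0.933) and Ebf4 (0.931). Barx1, a homeobox factor, was listed at 0 in all 6 WT libraries and had a mean of 117 in SCA1 KI cortex. Those most like Sfmbt2 were Mmp11 (0.951), Onecut2, Gprasp2 (0.944), Cd99l2 (0.924) and Hfm1 (0.916), so that Hfm1, which encodes a helicase of meiosis, and Cd99l2 stand in both lists. For Ucma they were Slc29a4 (0.991), a monoamine transporter, Ece2 (0.988), Cidea, Stil (0.986) and Mtbp (0.986). For Cidea they were Smc4 (0.991), a condensin subunit, Ranbp17 (0.987), Ucma, Arxes1 (0.980) and an entry whose symbol a spreadsheet program had turned into a date (0.977). The likest genes of Onecut2 and Sfmbt2 had their highest mean in SCA1 KI cortex, for example Ebf4 with 205 in WT cortex, 459 in SCA1 KI cortex and 193 and 217 in WT and SCA1 KI cerebellum. Those of Ucma and Cidea were highest in cerebellum, for example Slc29a4 with 311, 678, 1246 and 1389 in the same order.

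The genes lie in pairs on 2 chromosomes, Onecut2 and Cidea 2.94 Mb apart and Ucma and Sfmbt2 5.38 Mb apart. Of the 18 tested genes between Onecut2 and Cidea 0 were called in the cortex in either direction. Of the 19 between Ucma and Sfmbt2 1 was called higher and 4 lower. Over all tested genes 4.82% were called higher and 10.8% lower in cortex. In the cerebellum 0 of the 18 were called higher and 1 lower, and of the 19 1 higher and 2 lower. There 0.917% of all tested genes were called higher and 4.44% lower. The 3 nearest tested genes on each side of each member, 24 in all, had a median cortical LFC of 0.028, against −0.00281 over all tested genes. An untested entry on the opposite strand, which overlaps the span of Cidea without sharing an exon base, is not among these 24. Optn, which encodes the autophagy receptor optineurin and lies next but one to Ucma, was the one neighbour called higher in SCA1 KI cortex (652 to 964, LFC 0.56, limma adjusted p = 0.000115). Ccdc3, on the same side of Ucma, fell from 816 to 273 (LFC −1.58, limma adjusted p = 1.89e-05), and Pfkfb3 (LFC −0.47) and Spire1 (LFC −0.31) were called lower too. In the cerebellum 0 of the 24 neighbours were called by limma, edgeR or DESeq2, and 2 higher and 2 lower had an unadjusted p under 0.05.

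**Figure D3:**
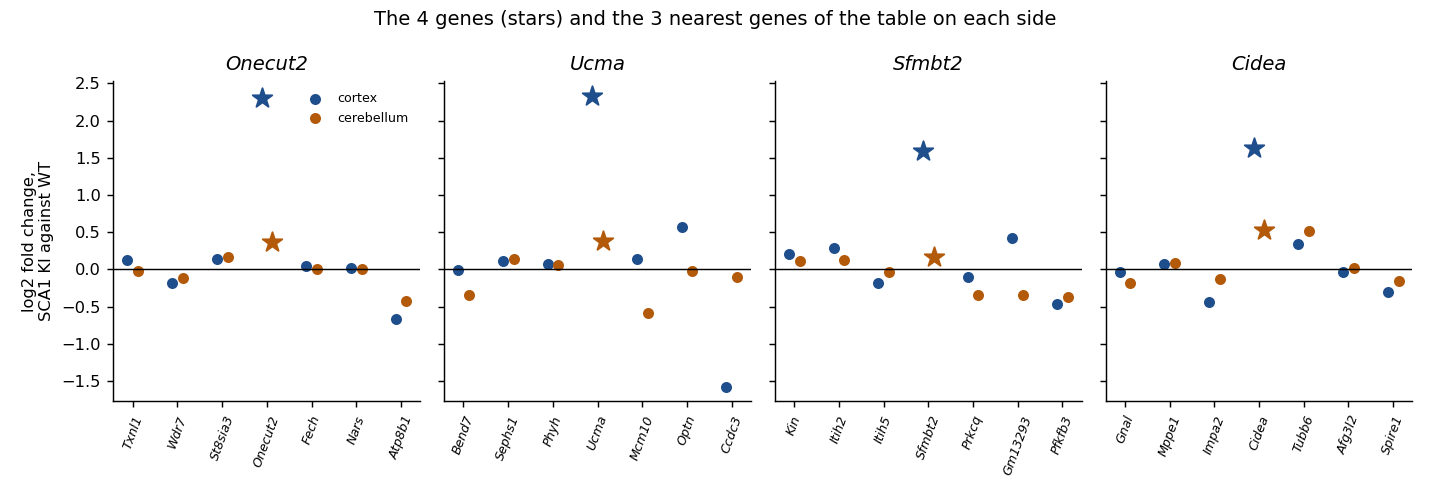
LFC of SCA1 KI against WT (vertical axis) in cortex and cerebellum for each of the 4 genes (stars) and the 3 nearest tested genes on each side (points), in order along the chromosome, which is not to scale. The neighbours' cortical values run from −1.58 (Ccdc3) to 0.56 (Optn), while the stars of the cortex, whose height chose the genes, lie at 1.59 or above.

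Lists of genes with related roles were written for each member. Over all tested genes, 4.82% were called higher and 10.8% lower in SCA1 KI cortex, and 0.917% higher and 4.44% lower in SCA1 KI cerebellum. Of the CUT-class homeobox factors, the relatives of Onecut2, 4 were tested, and 2 were called lower and 0 higher in SCA1 KI cortex, the latter also at an unadjusted p under 0.05. Cux1 fell from 6055 to 3759 (LFC −0.69, limma adjusted p = 2.17e-05) and Cux2, a factor of upper-layer neurons that also stands among the excitatory neuron markers, from 5466 to 3516 (LFC −0.64, limma adjusted p = 0.000123). Satb1 did not pass (LFC −0.090). The median LFC of the list was −0.41. In the cerebellum limma, edgeR and DESeq2 called 0 of the 4, and 2 had a positive LFC with an unadjusted p under 0.05.

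Of the 9 tested genes linked to Onecut factors in endoderm and in secretion, 2 were called higher and 1 lower in cortex. Among them Rab27a, a GTPase of secretory vesicles, rose from 187 to 259 (LFC 0.47). The vesicle GTPase Rab3c fell (LFC −0.49). In the cerebellum Rab27b (LFC −0.77) and Rab3d (LFC −0.27) were called lower, and the cortical median of the list was 0.0041.

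Of the vitamin K cycle and the Gla proteins, 13 of 20 listed genes were tested, and 0 were higher and 3 lower in SCA1 KI cortex. All 3 are the receptors of the Gla proteins Gas6 and protein S. Tyro3 fell from 9355 to 4791 (LFC −0.97, limma adjusted p = 0.000295), Mertk from 2048 to 1296 (LFC −0.65, limma adjusted p = 0.00246) and Axl by 0.33 on the log2 scale. The ligands Gas6 (LFC 0.13) and Pros1 (0.15), the carboxylase Ggcx (0.13), the reductase Vkorc1 (0.074) and the cartilage Gla protein Mgp (0.25) did not pass the test. The cortical median was −0.035. In the cerebellum 0 of the 13 were called by limma, edgeR or DESeq2, and 1 was lower at an unadjusted p under 0.05.

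Of the cartilage matrix and chondrocyte genes, 16 of 21 were tested, with 1 called higher and 3 lower in cortex by limma (1 and 2 by edgeR, 1 and 5 by DESeq2). In the cerebellum limma called 0 higher and 3 lower, as did edgeR, DESeq2 called 1 higher and 3 lower, and 1 was higher at an unadjusted p under 0.05. The collagen chain Col9a2 was higher in SCA1 KI cortex (LFC 0.49). The link protein Hapln1, also part of the nets around neurons, fell from 1636 to 877 in cortex (LFC −0.90, limma adjusted p = 0.00140) and from 624 to 373 in cerebellum (LFC −0.72, limma adjusted p = 0.0141), and the factors Sox5 (LFC −0.25) and Sox6 (−0.34) were lower in cortex. In the cerebellum aggrecan (Acan, LFC −1.35) and Col11a1 (−1.13) were lower. The cortical median of −0.094 turned to 0.0096 when trends on the length and GC content of transcripts were removed.

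Of the MBT-domain proteins and Polycomb partners of Sfmbt2 all 30 were tested. In SCA1 KI cortex 5 were called higher, each by a small amount. These were Phf1 (LFC 0.37), a Polycomb accessory protein, the ubiquitin ligases Rnf2 (0.36) and Ring1 (0.26), and the deacetylases Hdac1 (0.31) and Hdac2 (0.26). The closest relative of Sfmbt2, Sfmbt1, was called lower (2289.7 to 1927, LFC −0.25, limma adjusted p = 0.0123), a call at the limit of the fold change that was lost when the libraries were centred on their median and that edgeR and DESeq2 did not make. Yy1 and the methyltransferase subunits Ezh2, Eed and Suz12 did not pass (LFC −0.091 to 0.16). The cortical median was 0.023. In the cerebellum, where the median was 0.11, limma and edgeR called 0 of the 30 and DESeq2 1 lower, and at an unadjusted p under 0.05 there were 5 higher and 3 lower. With each region fitted on its own, 2 were called higher in cortex.

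Of the CIDE-domain and lipid droplet proteins 17 of 20 were tested, and 2 were higher and 2 lower in cortex. Plin5, a droplet coat protein of tissues that burn fat, rose from 12.3 to 35.1 (LFC 1.45, limma adjusted p = 0.0211) and Plin2 from 177 to 230 (LFC 0.38). The monoglyceride lipase Mgll fell from 13644.5 to 7448 (LFC −0.87, limma adjusted p = 6.31e-06) and Cideb, a close relative of Cidea, from 182 to 128 (LFC −0.50, limma adjusted p = 0.0225). The cortical median was 0.032, and with length and GC trends removed 5 were called higher. In the cerebellum 0 of the 17 were called by limma, edgeR or DESeq2, and 1 was lower at an unadjusted p under 0.05.

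Of 11 tested genes of brown fat, limma called 0 higher and 6 lower in SCA1 KI cortex, edgeR 0 and 6 and DESeq2 0 and 5, with a median LFC of −0.43. At an unadjusted p under 0.05, 0 were higher. Without WT cortex library C 4 were called lower. Dio2, which activates thyroid hormone, fell from 5906 to 2649.7 (LFC −1.16, limma adjusted p = 4.03e-05), and the regulators Pparg (LFC −0.81), Cebpa (−0.50), Ppara (−0.43) and Ppargc1a (−0.28) and the respiratory chain gene Cox8b (−1.55, from 7.97 to 2.20) were lower as well. With each region fitted on its own, 3 were called lower in cortex. In the cerebellum 0 of the 11 were called by limma, edgeR or DESeq2 or had an unadjusted p under 0.05, and the median of −0.058 turned to 0.094 with length and GC trends removed. Ucp1, Adipoq, Fabp4, Plin1 and Cidec were not analysed here. Of 17 genes of the apoptosis machinery, listed because Cidea is named after a DNA fragmentation factor, 0 were called in cortex by limma, edgeR or DESeq2, where 2 were higher at an unadjusted p under 0.05.

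Of the list genes and neighbours named, the cortical calls of Cux1, Cux2, Rab27a, Tyro3, Mertk, Hapln1, Phf1, Rnf2, Hdac1, Mgll, Dio2, Pparg, Cebpa, Cox8b, Optn, Ccdc3 and Spire1 and the cerebellar call of Acan held in all 12 fits that each left out 1 library. The call of Plin5 was lost without SCA1 KI cortex library A or E or WT cortex library C, and that of Plin2 in 7 of the fits. Those of Col9a2, Sox5, Ring1 and Pfkfb3 were lost in 4 fits each, those of Axl, Sox6, Hdac2, Cideb, Ppara and Ppargc1a in 3 each, and those of Rab3c and Sfmbt1 in 2 each. In the cerebellum the call of Rab3d was lost in 11 fits, that of Col11a1 in 4, that of Rab27b in 3 and that of Hapln1 in 2.

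**Figure D4:**
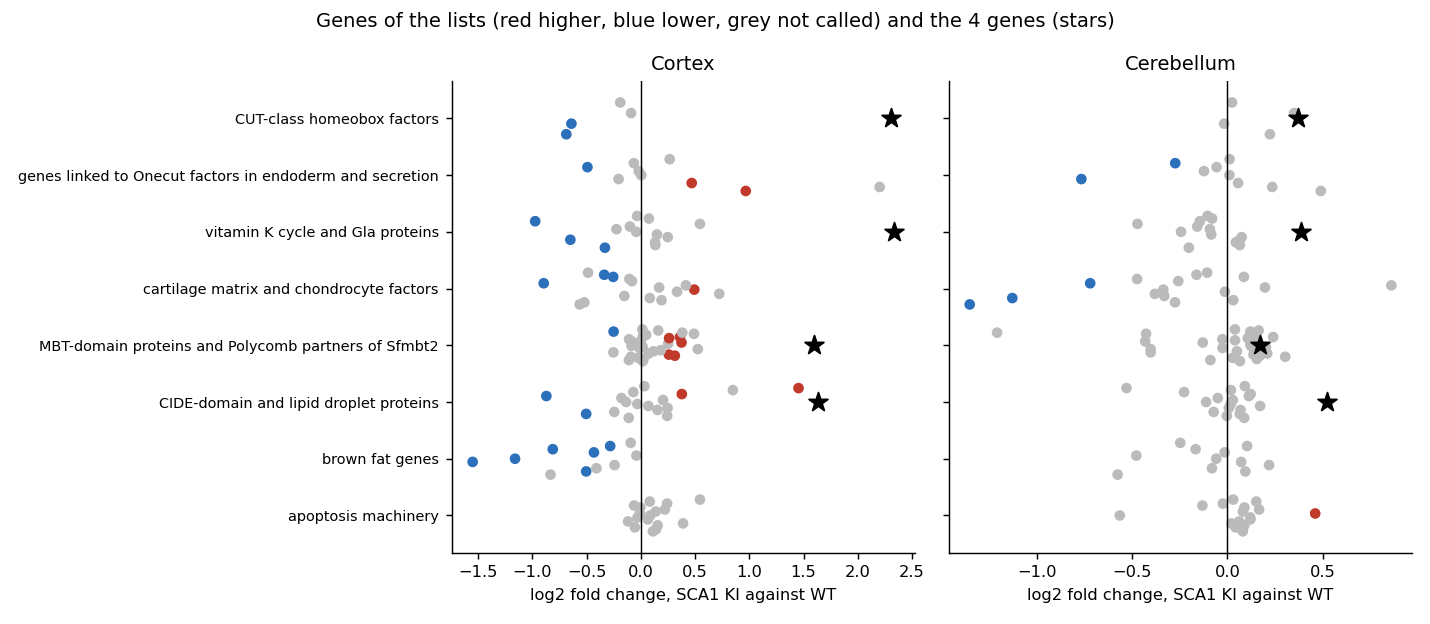
LFC of SCA1 KI against WT (horizontal axes) of the tested genes of each list in cortex (left) and cerebellum (right), with red for genes called higher, blue for genes called lower and grey for others, and stars for Onecut2, Ucma, Sfmbt2 and Cidea in the rows of their relatives. In the cortex the stars lie at 1.59 to 2.34, and among the list genes called higher Plin5 has the largest value, 1.45.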

How the data were processed

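The authors prepared libraries from poly-adenylated RNA, sequenced them as paired ends, aligned them with STAR to mm10, counted reads per gene with featureCounts and normalized with DESeq2, per the labels and the methods of the paper. Versions of these tools are not given in the sources used here. The deposited signal is a normalized count, which is the read count divided by a size factor of its library, and 100% of the values were whole reads within 0.01 read once this factor was undone. The library columns carry a letter or number of their own and could be tied to a group but to no replicate of the labels, and there were 0 columns of other samples. The paper describes both sexes combined, whereas the labels name only one.

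Of 15759 entries 390 had a mean under 10 normalized counts. In R 4.3.3, log2(normalized count + 1) of the other 15369 was fitted with limma 3.58.1 (trend on the mean, 4 group means, 12 libraries, p-values adjusted after Benjamini-Hochberg over all tested genes). Genes were called at an adjusted p below 0.05 where the absolute LFC exceeded 0.25, and the p-values measure the spread between the libraries deposited. The pseudocount understates the change of low genes. edgeR 4.0.16 (quasi-likelihood) and DESeq2 1.42.0 were run on the recovered reads as alternatives, beside a minimum mean of 50 or none, pseudocounts of 5 and 0.5, separate fits of the regions, centring, removal of length and GC trends, no limit on the LFC and each library left out. The scripts were tested on simulated data. GENCODE vM21 matched 15009 symbols, and 24 symbols had become dates.

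The members, the lists and the tests were chosen with earlier results of these data known. The genes named are the members, Atxn1 and the 3 genes that follow the members by p. For each member they include the 5 genes with the highest Pearson correlation and the 3 nearest tested genes on each side. Up to 5 called genes of each list with the smallest p are named too. List genes given as not called, further called ones and the markers Cbln3, Tal1, En1, En2, Pou4f1, Shox2, Gabra6, Pcp2, Th, Slc6a4, Tph2, Tbr1, Slc17a7, Itpr1, Calb1, Car8 and Ppp1r17 were named after their values were seen. Some genes that meet the rule are not reported here. Proteins and in situ signals were not analysed here.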

Additional observations from a re-analysis of the deposited data

Results flagged for a closer look

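The groups of 3 libraries are too small for a test of single outlying libraries. The 4 members were chosen on their cortical values, so the difference between their cortical and cerebellar changes was not tested. Among their chromosomal neighbours and the lists of related genes, 55 genes were examined here (the 24 neighbours and, for each list, up to 5 called genes in a region), and 15 of them had a change between SCA1 KI and WT that differed between the regions, by the interaction term of the limma fit at an adjusted p under 0.05. The term shares its libraries with the calls that picked the list genes. Over all 141 neighbours and tested list genes it was 16 (11.3%), and over all 15369 tested genes 1253 (8.15%). For each of them the cortical LFC minus the cerebellar LFC is given.

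Of the neighbours, Optn had a difference of 0.59 (limma adjusted p = 0.00223) and Ccdc3 of −1.48 (limma adjusted p = 0.00105), with cerebellar LFCs of −0.025 and −0.10. Of the relatives of Onecut2, Cux1 had −0.91 (limma adjusted p = 0.000217), with a cortical LFC of −0.69 and a cerebellar one of 0.22, and Cux2 had −0.62 (limma adjusted p = 0.00357). Rab27a had 0.41 (limma adjusted p = 0.0337).

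Of the receptors of Gla proteins, Tyro3 had −0.83 (limma adjusted p = 0.0154) and Mertk −0.71 (limma adjusted p = 0.0204). Of the cartilage genes, Col9a2 had 0.83 (limma adjusted p = 0.0158), with LFCs of 0.49 and −0.34, and Sox5 had −0.34 (limma adjusted p = 0.0475). Of the chromatin proteins, Phf1 had 0.50 (limma adjusted p = 0.0172) and Sfmbt1, the relative of Sfmbt2, −0.37 (limma adjusted p = 0.0179).

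Of the lipid droplet proteins, Mgll had −0.98 (limma adjusted p = 0.000155) and Plin5 1.98 (limma adjusted p = 0.0432), the largest of the 15 in size, with a cortical LFC of 1.45 and a cerebellar one of −0.53. Of the brown fat genes, Dio2 had −1.10 (limma adjusted p = 0.00172) and Cebpa −0.60 (limma adjusted p = 0.0311). Region and data set cannot be told apart in these differences.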

How the results depend on the processing

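Of 136 values of the members under settings that kept all libraries, 129 held their direction and either their call or, where untested, their size within 1 SD, as did 191 of 192 with a library left out. The exceptions were the cerebellar LFC of Cidea, which passed the threshold with each region fitted alone (0.53, limma adjusted p = 0.0271), with length and GC trends removed (0.64, limma adjusted p = 0.0148), with edgeR (0.52, adjusted p = 0.0419), with DESeq2 (0.53, adjusted p = 0.0103) and without SCA1 KI cortex library A, and the values of Ucma with a pseudocount of 5 (1.88 in cortex, 1.50 for the difference of the regions, −3.63 between WT regions), a setting that shrinks low counts. With a library left out the cerebellar LFC of Cidea lay between 0.44 and 0.58. Of the 5 genes most like each member, 0 remained over the 6 cortex libraries alone, and with Spearman's rho 1 remained for Onecut2 and Sfmbt2 and 0 for Ucma and Cidea.

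The 141 genes called higher in SCA1 KI cerebellum became 220 with each region fitted alone, 489 with length and GC trends removed (then 577 lower against 683) and 231 with DESeq2, and 43 to 195 with a library left out, while the lower ones became 356 to 806. In cortex the 741 called higher became 393 with each region fitted alone, and 1045 with 1355 lower against 1661 with the trends removed. The 501 and 752 genes with a higher or lower cortical than cerebellar LFC became 312 to 571 and 471 to 841 with a library left out. The lowest of these counts came without SCA1 KI cerebellum library 1. The cause was not tested. No paired analysis was possible because the library columns carry no replicate number of the labels, so the fit with the replicate number as a block was not run. The 5 to 7 reads of Ucma in WT cortex limit the precision of its cortical values.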
